A study of Rattus norvegicus with 8 samples.

Results

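A set of 10 genes that are in common use as internal references for real-time PCR was followed on the arrays of rat kidney cortex: Actb, Hprt1, Gapdh, B2m, Ppia, Tbp, Ywhaz, Sdha, Gusb and Rplp0. A probe was taken as a member when the RefSeq accession in its annotation belonged to 1 of these genes. This gave 16 probes for the 10 genes, of 30367 probes on the array, 17514 of which carried the name of 1 of 14737 genes. The 16 probes filled 45 spots per array, and for each gene the probe with the highest mean signal was taken as its lead probe.

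The study compared kidney cortex between 4 male and 4 female adult rats of the strain RCCHanTMWIST. The labels give no treatment and no genetic change for either sex, and each rat gave 1 RNA sample from cortical slices and 1 Cy3-labelled array. Age in weeks and stage of the estrous cycle were not given in the sources used here. In the study, Actb and Hprt1 were the internal references of the real-time PCR, and the levels shown were relative to Actb. By their Ct values in males and females, the paper reports both references as unaltered.

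A reference gene is a gene whose transcript is taken to stay at 1 level across samples, so that dividing by it removes differences in the amount of RNA and in the efficiency of reverse transcription. The genes in use come from basic functions of the cell: the cytoskeleton, glycolysis, the mitochondrion, purine salvage, protein folding, the ribosome, the lysosome, transcription and antigen presentation. Kidney cortex is made up mostly of proximal tubule, an epithelium with many mitochondria and a dense actin-filled brush border. In slices of whole cortex, fewer cells of a type and less RNA per cell cannot be told apart.

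All 8 arrays lay on 1 slide and came from 1 scan. Signals were scaled to the 75th percentile of each array, which was 5025 to 5944 in females and 5685 to 6547 in males, a difference of 0.18 on the log2 scale between the sex means. No spot was saturated. The labelled tissue was checked against marker genes: all 6 proximal tubule markers were well above background on all 8 arrays, while the adrenal markers Cyp11b1 and Star were not above background on any array. The fat marker Adipoq was above it on all 8 arrays and the liver marker Alb on 7. The other liver marker, Apoa1, was not above background on any array. Of the proximal tubule markers, Cubn was lower in males (−0.59, limma adjusted p = 0.00452) and Slc22a6 higher (0.38, adjusted p = 0.0153). Across the 23425 probes tested by limma, 1889 differed between the sexes at a Benjamini-Hochberg adjusted p below 0.05, and the median log2 fold-change of all probes tested, male minus female, was −0.04.

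All 16 probes of the reference genes were well above background on all 8 arrays. None of the 16 passed an adjusted p below 0.05 by limma with Benjamini-Hochberg adjustment, against 8.06% of all probes tested, and so none passed with a log2 fold-change of 1 or more in either direction, against 1.89%. At an unadjusted p below 0.05 there were 8 of 16, against 25.6% of all probes. Male and female values did not overlap in 8 of the 16 probes and in 6 of the 10 lead probes, against 18.5% of all probes tested. With 4 rats against 4, complete separation has an exact two-sided permutation p of 0.0286, the smallest that the 70 assignments allow. The 95% confidence intervals of the 10 lead probes reached at most 0.53 on the log2 scale, which is 1.45-fold, for Ywhaz. Below, all values are log2 signals relative to the 75th percentile of the array unless another scale is named, and levels are compared between rats only, within 1 probe.

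**Figure D1:**
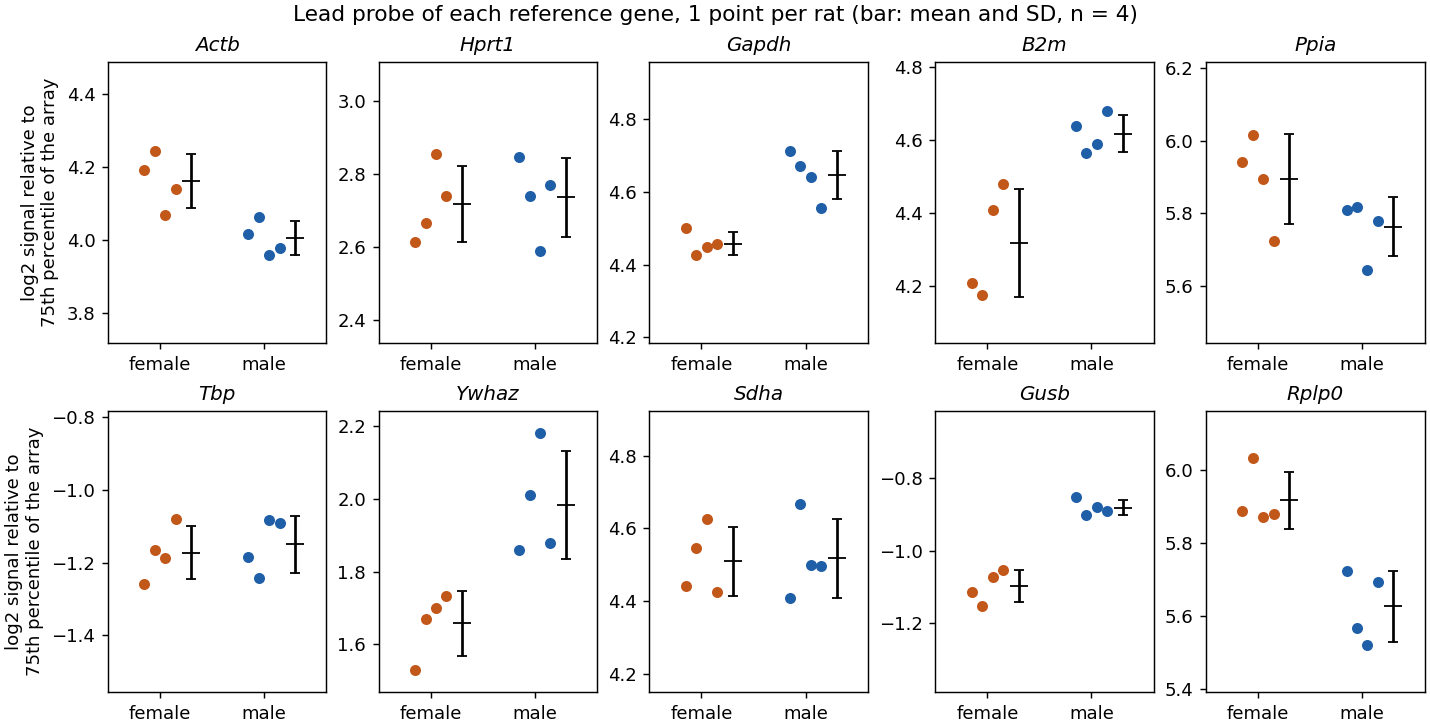
Log2 signal relative to the 75th percentile of the array (vertical axis) for the lead probe of each gene, with 1 point per rat and the mean and SD of 4 rats as a bar. All panels span the same height in log2 units. The male points lie above the female points for Gapdh, B2m, Ywhaz and Gusb and below them for Actb and Rplp0. In Actb and Rplp0 the sexes separated only after scaling, and their unscaled values overlapped. With no scaling the male minus female difference was 0.02 for Actb and −0.11 for Rplp0. The points of Hprt1, Ppia, Tbp and Sdha overlap.

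Actb encodes beta-actin, the cytoplasmic actin of stress fibres, the cell cortex and microvilli, and its lead and only probe was printed in 10 spots. The values of the 4 females were 4.19, 4.24, 4.07 and 4.14, and those of the 4 males 4.02, 4.06, 3.96 and 3.98. Every male value lay below every female value, with the lowest female just above the highest male. The log2 fold-change was −0.16 ± 0.07 (SE, 95% interval −0.31 to −0.01), with a limma adjusted p of 0.180. The sign rested on the scaling: without any scaling the mean log2 fold-change was 0.02. The unscaled signals were 103004, 95255, 93411 and 104824 in females and 105985, 95090, 99777 and 101458 in males, which overlap. Their SD over the 8 rats was 0.07 on the log2 scale, against 0.10 after scaling. The 10 spots of the probe on 1 array had an SD of 0.04 on the log2 scale.

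Hprt1 encodes hypoxanthine phosphoribosyltransferase, which returns hypoxanthine and guanine to the nucleotide pool, and its gene lies on the X chromosome. The females had 2.61, 2.67, 2.86 and 2.74 and the males 2.85, 2.74, 2.59 and 2.77. The sexes overlapped over nearly the whole range, with the highest value in a female and the lowest in a male. Male minus female, the log2 value was 0.02 ± 0.08 (SE, 95% interval −0.17 to 0.21, adjusted p = 0.922 by limma, exact permutation p = 0.886), so a change of up to about 1.16-fold towards males remained within the interval. Over the 8 rats the SD was 0.10, close to that of Actb, and the highest rat was 1.20-fold above the lowest.

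Gapdh encodes the glycolytic enzyme glyceraldehyde-3-phosphate dehydrogenase and was read by 3 probes. For the lead probe the females had 4.50, 4.43, 4.45 and 4.46, and the males 4.71, 4.67, 4.64 and 4.56. All 4 males were above all 4 females, and the females lay within a narrow band. The log2 difference, male minus female, came to 0.19 ± 0.06 (SE, 95% interval 0.04 to 0.33, adjusted p = 0.107 by limma), or 1.14-fold. The second probe gave the same mean, 0.19, also without overlap (adjusted p = 0.139). The third gave 0.10 with overlap (95% interval −0.05 to 0.24, adjusted p = 0.394), and its ratio to the second probe did not overlap between the sexes, with an exact permutation p of 0.0286 that became 0.229 after adjustment over the 8 probe pairs of the 4 genes with several probes.

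Sdha encodes the flavoprotein subunit of succinate dehydrogenase, the enzyme that links the citric acid cycle to the respiratory chain. The females had 4.44, 4.55, 4.63 and 4.42 and the males 4.41, 4.67, 4.50 and 4.50. The lowest and the highest value were both from males, and the sexes overlapped. The log2 fold-change was 0.0080 ± 0.08 (SE, 95% interval −0.18 to 0.19, adjusted p = 0.966 by limma, exact permutation p = 0.943). Among the 10 lead probes it was the difference nearest to 0, and its sign changed when the arrays were scaled to Hprt1 or to the mean of the 10 genes.

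B2m encodes beta-2-microglobulin, the light chain of MHC class I molecules and of the neonatal Fc receptor, which the proximal tubule uses to retrieve albumin and immunoglobulin. Values were 4.21, 4.17, 4.41 and 4.48 in females and 4.64, 4.56, 4.59 and 4.68 in males. Males were all above females, and females spread more widely (SD 0.15 against 0.05, n = 4 each). The mean log2 difference was 0.30 ± 0.09 (SE, 95% interval 0.10 to 0.50, adjusted p = 0.0710 by limma), or 1.23-fold. The 2 lower females lay in row 2 of the slide and the others in row 1. Within the rows, with 2 rats of each sex in each, the difference was 0.22 in row 1 and 0.38 in row 2. With the row as a block the limma adjusted p was 0.0392. It was 0.165 with the slide column as a block and 0.101 with the replicate number as a block. The 4 white blood cell markers Ptprc, Cd3e, Cd68 and Cd74 all had higher male than female means (median log2 fold-change 0.43, none past an adjusted p below 0.05 by limma). Of these Cd3e was well above background on 5 of 8 arrays and the others on all 8. Their mean log2 signal ran from −2.63 to −1.51 in females and from −1.90 to −1.31 in males, and its part in the B2m difference was not tested.

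Ppia encodes cyclophilin A, an abundant cytosolic peptidyl-prolyl isomerase and the target of ciclosporin. The lead probe had 5.94, 6.01, 5.90 and 5.72 in females and 5.81, 5.82, 5.64 and 5.78 in males. The sexes overlapped through the lowest female. The log2 fold-change came to −0.13 ± 0.08 (SE, 95% interval −0.32 to 0.06, adjusted p = 0.367 by limma, exact permutation p = 0.143), and its sign turned to 0.03 when the arrays were scaled to Actb and to 0.05 with no scaling. The other 2 probes gave −0.13 and −0.02, both with overlap. A spot of Ppia held the highest signal of any member, 367258, which was 47.1% of the value at which the scanner saturates.

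Tbp encodes the TATA-binding protein, a subunit of the factors that place RNA polymerases at promoters, and its probe was printed in 10 spots, of which 2 spot values over the 8 arrays were left out as outliers. The females had −1.26, −1.16, −1.19 and −1.08 and the males −1.19, −1.24, −1.08 and −1.09. Male and female values interleaved. Male minus female, the log2 difference was 0.02 ± 0.07 (SE, 95% interval −0.14 to 0.18, adjusted p = 0.882 by limma, exact permutation p = 0.686), with the opposite sign under scaling to the mean of the 10 genes. The highest rat was 1.13-fold above the lowest. At 0.07, the SD over the 8 rats was the smallest of the 10 lead probes. Single spots of the probe on 1 array had an SD of 0.09. Each rat value is a mean over up to 10 spots, so these SDs are not on the same footing.

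Ywhaz encodes 14-3-3 zeta, an adaptor that binds phosphorylated serine and threonine in many signalling proteins. The females had 1.53, 1.67, 1.70 and 1.73 and the males 1.86, 2.01, 2.18 and 1.88. Males were all above females, with male 3 the highest and female 1 the lowest, 1.57-fold apart. The log2 fold-change was 0.33 ± 0.09 (SE, 95% interval 0.12 to 0.53, adjusted p = 0.0673 by limma), or 1.25-fold, the largest difference and the largest spread among the 10 genes. It was 0.15 within row 1 of the slide and 0.50 within row 2.

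Gusb encodes beta-glucuronidase, a lysosomal hydrolase that has long been known as an androgen-responsive enzyme of the mouse kidney. The lead probe had −1.11, −1.15, −1.07 and −1.05 in females and −0.85, −0.90, −0.88 and −0.89 in males. Males were all above females, and within each sex the rats lay close together (SD 0.04 in females and 0.02 in males). On the log2 scale the male minus female difference was 0.22 ± 0.06 (SE, 95% interval 0.08 to 0.35, adjusted p = 0.0595 by limma), or 1.16-fold. The within-sex SD of 0.03 was at the 0.291 percentile of 21629 probes (those above background on every array). A second probe gave 0.13 (95% interval −0.03 to 0.29, adjusted p = 0.301) with overlap.

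Rplp0 encodes the acidic protein at the base of the ribosomal stalk, where elongation factors bind. The lead probe had 5.89, 6.03, 5.87 and 5.88 in females and 5.72, 5.57, 5.52 and 5.69 in males. All males were below all females. Male minus female, the log2 fold-change was −0.29 ± 0.08 (SE, 95% interval −0.46 to −0.12, adjusted p = 0.0534 by limma), which is 1.22-fold higher in females. Its size rested on the scaling: it ran from −0.34 with scaling to the mean of the 10 genes to −0.11 with no scaling. With no scaling the limma adjusted p was 0.498 and the sexes overlapped. Of 24 alternative settings, 4 gave an adjusted p below 0.05 by limma for this probe. The second probe had 5.66, 5.96, 5.94 and 5.93 in females and 5.64, 5.61, 5.43 and 5.59 in males, again without overlap, and differed by −0.30 ± 0.09 (SE, adjusted p = 0.0795 by limma). Female 1 lay apart from the other females in this probe but not in the lead probe. Without female 1 the second probe reached −0.38 with a limma adjusted p of 0.0394. Female 1 was the lowest female in this probe, so leaving it out could only widen the difference. The lead probe without female 1 had −0.30 with a limma adjusted p of 0.0963. Within the rows of the slide the lead probe differed by −0.17 and −0.42.

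**Figure D2:**
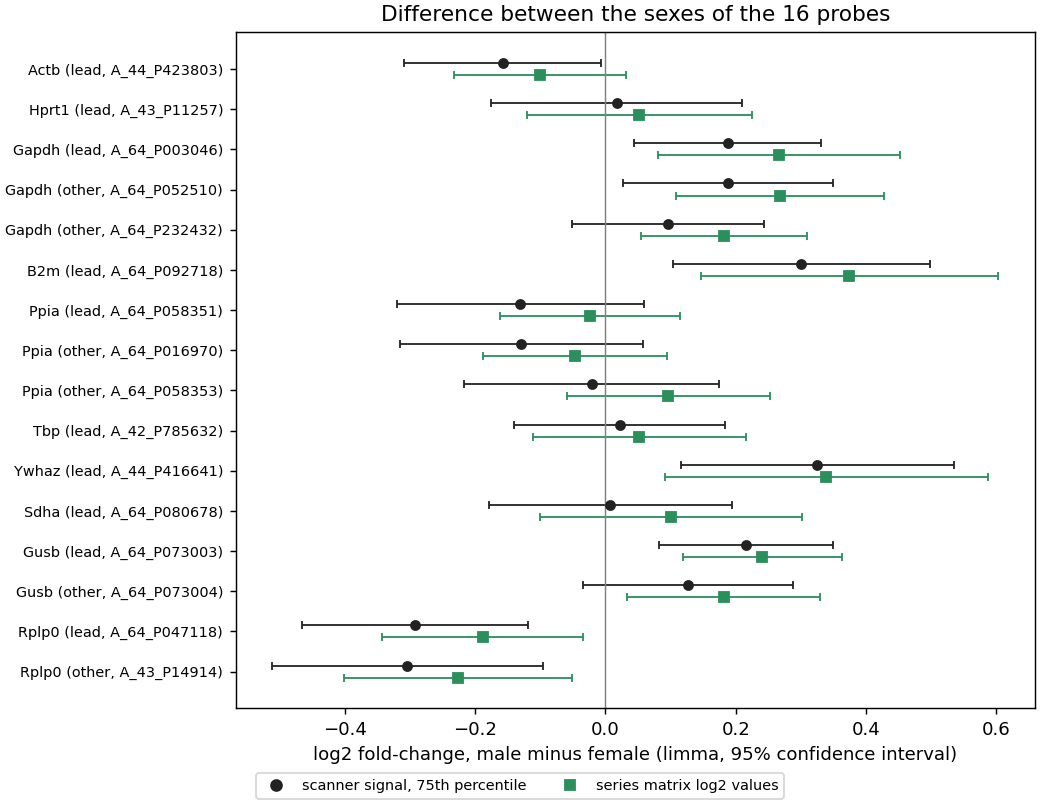
Log2 fold-change, male minus female, of the 16 probes with the 95% confidence interval of limma (horizontal axis), from signals scaled to the 75th percentile (circles) and from the log2 values of the series matrix (squares). Each matrix estimate of a lead probe lies 0.01 to 0.11 to the right of the scaled one, and no lead probe changes side between these scales, whereas without scaling Actb and Ppia do.

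The log2 values of the series matrix ranked the probes of each array exactly as the scanner signals did (Spearman's rho 1 on every array) but had the same distribution on all arrays, as quantile normalization gives. On this scale the 10 lead probes kept the sign they had after scaling to the 75th percentile, and their log2 fold-changes lay 0.01 to 0.11 higher. The number of probes without overlap of the sexes was 9 of 16 (18.8% of all probes on this scale), in place of 8. Actb overlapped in the matrix, with 16.69, 16.68, 16.58 and 16.68 in females and 16.53, 16.58, 16.60 and 16.52 in males, a difference of −0.10. Gusb reached an adjusted p of 0.0310 by limma, against 8.32% of all probes called, with 11.39, 11.38, 11.44 and 11.45 in females and 11.67, 11.63, 11.67 and 11.66 in males, a difference of 0.24. Rplp0 narrowed to −0.19 and Ppia to −0.02. Sdha was 0.10 and B2m 0.37. The third probe of Gapdh and the second of Gusb, which overlapped after scaling to the 75th percentile, did not overlap in the matrix, with differences of 0.18 each.

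As a description, the SD over the 8 rats was 0.07 to 0.21 among the 10 lead probes, with a median of 0.12. For the same 21629 probes the median SD was 0.18, and for the 2163 brightest of them 0.14. Tbp stood at the 4.15 percentile, Sdha at 12.1, Hprt1 at 14.4, Actb at 15.6, Ppia at 23.5, Gusb at 23.8, Rplp0 at 48.5 and B2m at 54.2, with Gapdh between Actb and Ppia and Ywhaz above B2m. Thus 8 of the 10 had an SD below the median of all probes, and B2m and Ywhaz did not. Before scaling, the median SD of the 10 lead probes was 0.18, and 7 of the 10 varied more than after it. Actb, Ppia and Rplp0 varied less.

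**Figure D3:**
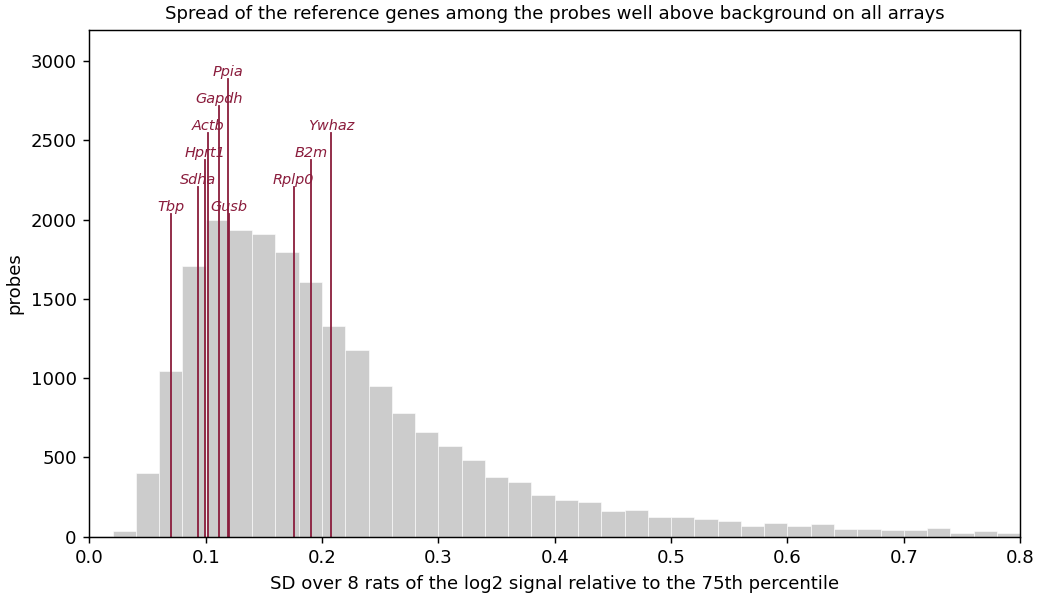
Distribution of the SD over the 8 rats of the scaled log2 signal (horizontal axis) for 21629 probes well above background on all arrays (grey bars, number of probes), with the SD of each lead probe as a red line whose height has no meaning. The axis ends at 0.8. Tbp lies at the low end, at 0.07, and Ywhaz at 0.21, beyond the median of all probes at 0.18.

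A ratio of 2 genes on the same array does not depend on scaling by 1 factor per array, though quantile normalization can alter it, so the pairs were examined next. The SD of the log2 ratio over the 8 rats ran from 0.05 for Gapdh and Gusb to 0.37 for Ywhaz and Rplp0, with a median of 0.16 over the 45 pairs. The ratio of Gapdh to Gusb thus varied less than the ratio of any 2 probes of the same gene, for which the SD was 0.06 to 0.10. The mean of these SDs per gene, the M value used to rank reference genes, was 0.16 for Tbp, Gusb, Gapdh, Hprt1 and Sdha, 0.18 for Actb, 0.19 for Ppia, 0.21 for B2m and 0.23 for both Ywhaz and Rplp0. When the gene with the highest M was removed step by step, Rplp0 left first and then Ywhaz, B2m, Ppia, Actb, Sdha, Hprt1 and Tbp, leaving Gapdh with Gusb. This order depended on the scale: with the series matrix values Gapdh moved from rank 3 to 6 by M (0.17) and Ppia from 7 to 5 (0.16), and the last pair was Actb with Ppia (SD 0.08), while Tbp kept the lowest and Rplp0 the highest M. Both Gapdh and Gusb had higher male values after scaling to the 75th percentile and under each other scaling tried, though neither passed the adjusted threshold with the reported scaling.

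In 21 of the 45 pairs the log2 ratios of males and females did not overlap (exact permutation p = 0.0286 each, 0.0612 after Benjamini-Hochberg adjustment over the 45 pairs, so none passed 0.05). The pairs reuse the same lead probes and are not independent. No such share was taken for pairs of other probes, so the count has no background to be read against. The widest difference was that of Ywhaz to Rplp0, where the ratio was 1.53-fold higher in males (0.62 on the log2 scale). B2m to Rplp0 differed by 0.59, Gusb to Rplp0 by 0.51 and Gapdh to Rplp0 by 0.48. Of the references used in the study, Actb differed from Ywhaz by −0.48, from B2m by −0.46, from Gusb by −0.37 and from Gapdh by −0.35, each without overlap. Hprt1 differed without overlap from Ywhaz by −0.31, from B2m by −0.28, from Gusb by −0.20 and from Rplp0 by 0.31. The ratio of Actb to Hprt1 differed by −0.17 with overlap (SD over the 8 rats 0.16, exact permutation p = 0.114, 0.161 after adjustment over the pairs), and that of Actb to Ppia by −0.03 (exact permutation p = 0.714, 0.784 after adjustment).

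**Figure D4:**
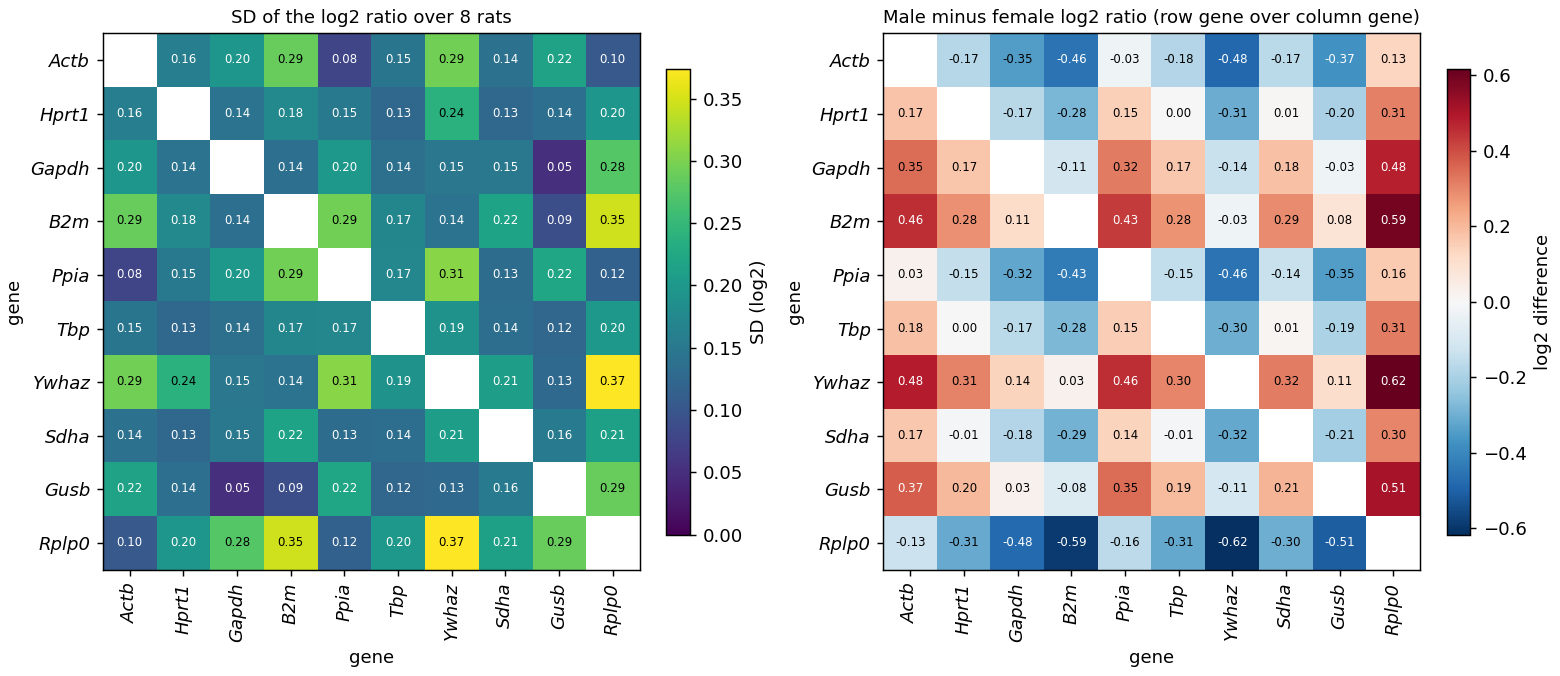
Left, SD over the 8 rats of the log2 ratio of each pair of lead probes. Right, male minus female difference of the log2 ratio of the row gene to the column gene. The SD runs from 0.05 (Gapdh with Gusb) to 0.37 (Ywhaz with Rplp0), and the difference is largest for Ywhaz over Rplp0, at 0.62. A ratio within an array is not altered by scaling the array to its 75th percentile.

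The choice of reference entered any ratio taken to it. This was followed for 3 genes that the study compared between the sexes: Slc22a6 and Slc22a8, which encode the basolateral organic anion transporters Oat1 and Oat3 of the proximal tubule, and Bcl6, which encodes a transcriptional repressor. By real-time PCR on the same rats, relative to Actb, the paper reports that both transporters differed between the sexes, Oat1 more than Oat3. It also reports Bcl6 as higher in males by PCR. The ratios given here are between array signals, which is another measure. Relative to the 75th percentile, the log2 fold-change was 0.38 for Slc22a6 (limma adjusted p = 0.0153), 0.22 for Slc22a8 (adjusted p = 0.113) and 2.17 for Bcl6 (adjusted p = 0.00208). Over the 10 references, the difference of each gene spanned 0.62 on the log2 scale, the distance between Ywhaz and Rplp0.

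For Slc22a6 the log2 difference was 0.54 relative to Actb and 0.36 relative to Hprt1, and males were above females without overlap for 6 of the 10 references. It was 0.19 relative to Gapdh, 0.16 to Gusb, 0.08 to B2m and 0.05 to Ywhaz, with overlap in these 4. For Slc22a8 it was 0.37 relative to Actb, 0.20 to Hprt1 and 0.51 to Rplp0, but −0.08 relative to B2m and −0.11 relative to Ywhaz, with overlap for 5 of the 10 references. Relative to the mean of the 10 genes, Slc22a6 differed by 0.33 (exact permutation p = 0.0286) and Slc22a8 by 0.17 (exact permutation p = 0.0571). Bcl6 was above in all 4 males for every reference, by 1.84 relative to Ywhaz up to 2.46 relative to Rplp0, or 3.58-fold to 5.49-fold. No reference differed between the sexes by more than 0.33, so none could have reversed the Bcl6 difference of 2.17.

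**Figure D5:**
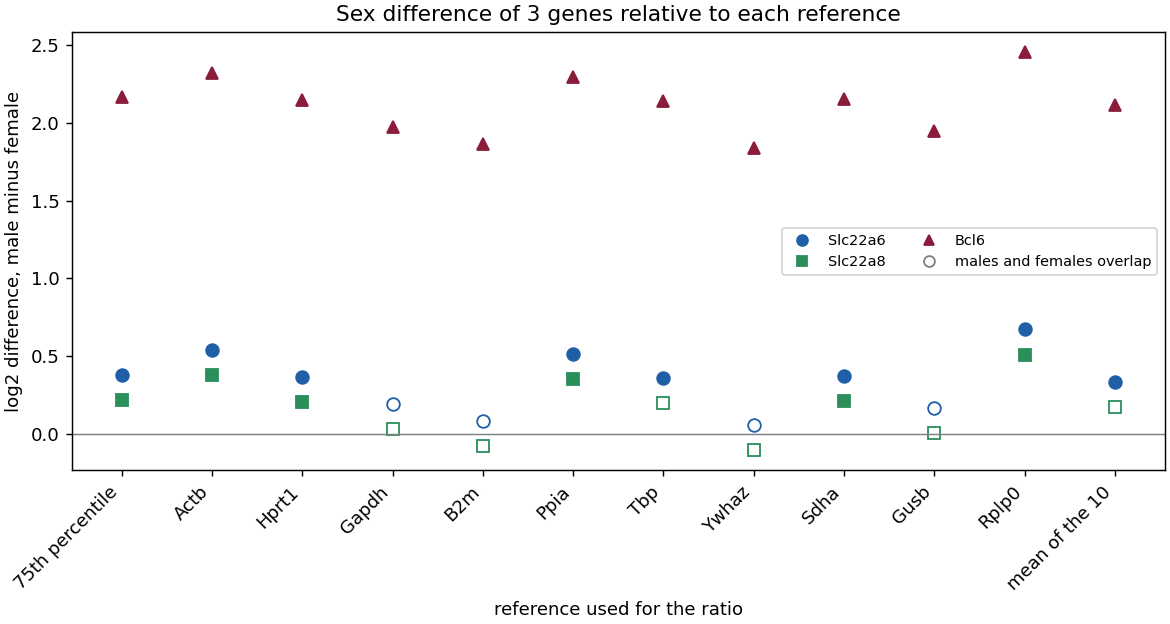
Log2 difference, male minus female (vertical axis), of Slc22a6, Slc22a8 and Bcl6 relative to the 75th percentile, to each reference gene and to the mean of the 10 reference genes (horizontal axis). Open symbols mark references for which the 4 male and 4 female ratios overlap. Bcl6 lies at 1.84 or above throughout, while Slc22a8 falls below 0 relative to B2m and Ywhaz.

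Using 1 reference gene in place of the 75th percentile for the whole array changed how many probes were called. With every array scaled to Actb, limma called 2900 probes (12.4%) at an adjusted p below 0.05 in place of 1889, and 82.0% of them were higher in males in place of 42.1%. The median log2 fold-change of all probes tested moved from −0.04 to 0.11. Of the 15 probes of the other reference genes (Actb itself is fixed by this scaling) 7 were then called, all higher in males: 3 of Gapdh, both of Gusb, and those of B2m and Ywhaz. With every array scaled to Hprt1, 997 probes (4.26%) were called, 42.4% of them higher in males, and none of the 15 probes of the other reference genes was among them. Scaling to the mean of the 10 genes gave 2351 calls (10%) with 27.4% higher in males. Both Rplp0 probes were among the calls, lower in males. The lead Rplp0 probe is itself part of this mean, and the log2 fold-changes of the 10 lead probes average 0 under it by construction. Quantile normalization called 3 of the 16 probes, against 8.43% of all: the lead probes of Gusb and B2m and the second of Gapdh. With no scaling at all 3 were called, against 8.87% of all: those of Ywhaz, the lead probe of Gusb and the second of Gapdh. When a log2 fold-change of 1 or more in either direction was also asked for, the calls changed less: of the 443 made after scaling to the 75th percentile, 388 were among the 481 made after scaling to Actb, 421 among the 428 after scaling to Hprt1 and 427 among the 461 after scaling to the mean of the 10 genes.

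The genes around each reference were then examined as lists, whose counts of calls are to be read against the 8.06% of all probes called. Of 17 further genes in use as references with a probe tested, none was called by limma with Benjamini-Hochberg adjustment, and their median log2 fold-change was −0.12, against −0.04 for all probes. After quantile normalization this median was −0.03, against 0.01 for all probes. Rpl4, Rpl13a, Rpl19 and Rpl32 are also in the list of ribosomal proteins below, so the medians of these lists are not independent. Tfrc, the transferrin receptor, had 0.41 (adjusted p = 0.0789).

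The large-subunit ribosomal proteins were listed beside Rplp0. All 14 had lower means in males, as did 58.4% of all probes tested, with a median log2 fold-change of −0.23. In the test 1 of the 14 passed, Rpl10 with −0.36 (adjusted p = 0.0343 by limma). The least changed of them, Rpl19, had −0.17. All 14 stayed lower in males after quantile normalization, where the median was −0.14 and none was called, and 13 of 14 with no scaling. All 14 were also lower with arrays scaled to the median, to Actb, to Hprt1 or to the mean of the 10 genes. These scalings shift every log2 fold-change by 1 constant, at most 0.157. That is too little to change the sign of Rpl19, so this outcome was fixed in advance. With arrays scaled to Actb the median was −0.08.

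Of 18 actin cytoskeleton genes tested, 2 rose in males by limma: Vil1, which encodes the microvillar bundling protein villin, by 0.56 (adjusted p = 0.00340) and Arpc1a, a subunit of the actin-nucleating Arp2/3 complex, by 0.25 (adjusted p = 0.0453). The median of the list was 0.02, and Arpc5 changed least, at −0.0047. Of 15 glycolytic genes tested beside Gapdh, Pfkp (−0.34, adjusted p = 0.0412 by limma) and Pkm (−0.31, adjusted p = 0.0450), a phosphofructokinase and a pyruvate kinase, fell in males and none rose. After quantile normalization Pkm was no longer called (adjusted p = 0.0515 by limma). Pgam1 changed least, at 0.02, and the median was −0.04. Of 15 genes of succinate dehydrogenase and the citric acid cycle, Idh3a, a subunit of isocitrate dehydrogenase, rose by 0.38 (adjusted p = 0.0496 by limma), and the median was 0.01, which was also the value of Suclg1, the least changed.

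Of 5 genes of 14-3-3 proteins tested beside Ywhaz, 1 was called, Ywhah, higher in males by 0.43 (adjusted p = 0.0184 by limma), while Ywhaq had −0.0094. Of 11 purine genes beside Hprt1, Xdh, the xanthine dehydrogenase that makes urate, rose in males by 0.59 (adjusted p = 0.0194 by limma), and Prps2, which makes phosphoribosyl pyrophosphate, fell by 0.45 (adjusted p = 0.0396), while Aprt had 0.05. The call of Prps2 was lost after quantile normalization (adjusted p = 0.0637 by limma). Of 16 genes of basal transcription beside Tbp, the TFIID subunit Taf2 rose by 0.30 (adjusted p = 0.0287 by limma), with a median of −0.0013 over the list and 0.01 for Gtf2f1. By limma, none of 12 genes of MHC class I assembly, 8 cyclophilins and 13 lysosomal hydrolases was called, with medians of −0.02, −0.04 and −0.05. Their least changed genes were RT1-A1 (0.02), Ppig (−0.01) and Gaa (−0.02).

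Last, the genes most like the study's references were sought among 11141 named genes well above background on all 8 arrays, by the root mean square difference between profiles that were each centred on their own mean over the 8 rats. For Actb these were Psmd10 (0.027), Prmt5 (0.029) and Mrpl41 (0.030), where the median of all genes was 0.18. For Hprt1 they were Mrpl30 (0.035), Dhodh (0.039) and Tcn2 (0.040), where the median was 0.19. Among the reference genes, Ppia was nearest to Actb, at 0.07, and Tbp nearest to Hprt1, at 0.12.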

How the data were processed

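Kidney cortex RNA of 4 male and 4 female rats was hybridised to 8 Agilent arrays in 1 colour, with 1 array for each rat. The deposited scanner files hold the intensity of each spot, made by the authors with Feature Extraction 10.7.3.1 (background-subtracted processed signal). The deposited series matrix holds log2 values of the same arrays; their distribution is the same on all arrays, and the submitters' notes name limma 3.8.2. Genome build and annotation release of the array design are not given in the sources used here, so no coordinates are printed.

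Control spots were left out, which kept 58717 of 62976 spots per array, and so were outlier spots. Log2 intensities were scaled to the 75th percentile of each array and averaged over the spots of each probe. Probes entered the test when 4 or more arrays had most of their spots well above background. Sexes were compared with limma 3.58.1 in R 4.3.3 (lmFit, eBayes, Benjamini-Hochberg adjustment over the 23425 probes tested). Single probes and ratios were compared with two-sided exact permutation tests over 70 assignments. Alternatives were quantile normalization, the series matrix values, median scaling, scaling to Actb, to Hprt1 and to the mean of the 10 genes, outlier spots kept, no filter, a filter on all 8 arrays, an intensity trend with robust prior, array weights, the replicate number or the slide row as a block, and leaving out each rat. Added after seeing the data were normexp background correction (offset 50, on median signals, as no mean signal was in the files), no scaling, and the slide column as a block. Each row of the slide held 2 rats of each sex and each column 1 of each. Named genes were all 10 members, up to 3 called genes with the largest change and the least changed gene of each related list, and the 3 genes nearest to Actb and Hprt1. The least changed gene of 1 list is not reported here. The members and lists were chosen with earlier results of these data known. The fits were tested on simulated data.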

Additional observations from a re-analysis of the deposited data

Results flagged for a closer look

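Among 32 groups of 4 rats (16 probes, each sex), 3 held 1 rat far from the other 3 by Dixon's test, where chance gives about 1 in 20 groups, or 1.6. Female 2 had 4.32 for the third Gapdh probe, with the other females at 4.25 to 4.26. Female 2 also had 6.03 for the lead Rplp0 probe, with the others at 5.87 to 5.89. Female 1 had 5.66 for the second Rplp0 probe, with the others at 5.93 to 5.96, and only this probe set female 1 apart. All are log2 signals relative to the 75th percentile of the array. What set these values apart was not tested.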

How the results depend on the processing

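No reference gene probe passed an adjusted p below 0.05 by limma in the reported setting, and 13 of 24 alternatives also gave 0 of 16. Many of these 13 also called fewer probes over the whole array, so their 0 says less. These were scaling to Hprt1 (which fixes Hprt1 itself), no filter, the replicate number or slide column as a block, and runs without 1 rat. The other 11 gave 3 with quantile normalization, 1 with the series matrix values, 3 with normexp background correction, 2 with median scaling, 7 with scaling to Actb, 2 with scaling to the mean of the 10 genes, 3 with no scaling, 1 with a filter on all 8 arrays, 6 with an intensity trend and robust prior, 1 with the slide row as a block, and 0 to 1 when 1 rat was left out (1 without female 1). Over all probes the count of 1889 became 2900 with scaling to Actb, 997 with scaling to Hprt1, 1194 with no filter, 929 with the slide column as a block, and 1012 to 1544 without 1 rat. Another scaling moved the share of calls that were higher in males: 42.1% as reported, 56.3% with quantile normalization, 54.4% with the matrix values, 55.1% with median scaling and 81.2% with no scaling. Removing the scaling shifted all log2 fold-changes by 0.18.

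The deviations of same-numbered rats correlated at 0.02 to 0.14, above 0.1 in 1 of 4 pairs. Those of differently numbered rats correlated at −0.22 to 0.12. So few and weak correlations cannot tell whether the replicate numbers mark a shared source. With the replicate number as a block, 1030 probes and 0 of the 16 were called.

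Some signs changed, to values of at most 0.048 from 0, starting from −0.16 for Actb and −0.13 for Ppia and from at most 0.02 for Hprt1, Tbp and Sdha. Actb was 0.022 with no scaling. Ppia was 0.027 with scaling to Actb and 0.048 with no scaling. With scaling to the mean of the 10 genes Hprt1 was −0.032, Tbp −0.028 and Sdha −0.042. Sdha was −0.0096 with scaling to Hprt1 and −0.011 with array weights. Without 1 rat Hprt1 ran from −0.020 to 0.067, Tbp from −0.0062 to 0.053 and Sdha from −0.042 to 0.047. Gapdh, B2m, Ywhaz, Gusb and Rplp0 kept their direction in every alternative run, but many of these runs could not have changed it. The other filters, the intensity trend and the blocks left the log2 fold-change itself the same. Scaling to the median or to reference genes, or no scaling, shifted all fold-changes by 1 constant, from −0.05 to 0.18. With no scaling Rplp0 was at −0.11, its value nearest to 0. The median SD of the lead probes, 0.12, became 0.18 with no scaling and 0.11 to 0.12 without 1 rat. The mean M value of 0.18 was 0.17 to 0.19 without 1 rat.

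All 16 probes were well above background and below saturation on every array, so neither bounds a value. Probe sequences were not used here, so signal from related transcripts (Actg1 for Actb, processed copies of Gapdh, Ppia and Rplp0) was not checked. The spread between replicates covers rat and array together, since each rat had 1 array.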
